A study of Mus musculus with 4 samples.

Results

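The 10 genes described here carry out iron storage, uptake, export and sensing in mouse macrophages. They are the ferritin chains Fth1 and Ftl1, the importers Tfrc, Slc11a1 and Slc11a2, the exporter Slc40a1, the haem-degrading enzyme Hmox1, the ferritin receptor Ncoa4, and the iron regulatory proteins encoded by Aco1 and Ireb2. They were chosen by symbol, and all 10 were found among the 55536 genes measured. The cells were primary macrophages grown from the bone marrow of C57BL/6J mice exposed to a stimulus of 100 ng/mL over 60 minutes, and polyadenylated RNA was sequenced in 4 libraries that form 1 group. The stimulus has more than 1 name in the labels, lipid A in one field and lipoprotein A in the others, so it is called the stimulus here. The libraries are numbered as biological replicates 1 to 4 but share a donor label, and no label ties each to its own animal or culture, so differences between them may be technical. No untreated cells were analysed here, and no value below is a response to the stimulus. The symbols were picked with earlier results of these libraries known, so the levels are a description and carry no test.

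Macrophages clear dying red cells and hold much of the body's recycled iron. Iron enters with transferrin through the receptor Tfrc, is carried out of endosomes and phagosomes by Slc11a2 and Slc11a1, is freed from haem by Hmox1, stored in a shell of Fth1 and Ftl1 chains, released when Ncoa4 takes ferritin to the lysosome, and leaves through ferroportin, the product of Slc40a1. When iron is scarce, the proteins made from Aco1 and Ireb2 bind a hairpin called the iron responsive element. Bound near the start of an mRNA it blocks translation, as in ferritin, and bound in the 3′ UTR of Tfrc it protects the mRNA from decay.

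The hairpins are shown first because they are the sequence that the iron regulatory proteins recognise. The motif searched was an unpaired C, 5 bases, the loop CAGTGN and 5 bases that pair with the first 5, with G to T pairs allowed, on the sense strand of every GENCODE M21 transcript. Lower case gives the stem and flanks and capitals give the 6-base loop, all written 5′ to 3′ as DNA from the mm10 transcripts.
Fth1, 5′ UTR, exon 1, chr19:9982732-9982760, plus strand: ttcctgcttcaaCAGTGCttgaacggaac
Ftl1, 5′ UTR, exon 1, chr7:45459779-45459807, minus strand: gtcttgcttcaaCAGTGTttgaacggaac
Slc40a1, 5′ UTR, exon 1, chr1:45925465-45925493, minus strand: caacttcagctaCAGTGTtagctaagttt
Tfrc, 3′ UTR, exon 19, chr16:32631219-32631247, plus strand: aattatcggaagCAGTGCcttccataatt
Tfrc, 3′ UTR, exon 19, chr16:32631598-32631626, plus strand: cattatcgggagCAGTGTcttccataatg
Tfrc, 3′ UTR, exon 19, chr16:32631663-32631691, plus strand: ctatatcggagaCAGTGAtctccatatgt
Tfrc, 3′ UTR, exon 19, chr16:32631710-32631738, plus strand: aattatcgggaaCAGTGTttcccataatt
Slc11a2, 3′ UTR, exon 16, chr15:100395152-100395181, minus strand: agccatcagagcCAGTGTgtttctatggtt

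The fully paired motif was found in 4 of the 10 members. The 4 include the ferritin chains and Tfrc, which are known carriers of the element, so this count is a description and no test. Over the whole annotation the motif was found in 448 of 55450 genes, or 0.808%, whatever the length of their transcripts. Inside 5′ UTRs it was rarer, with 31 of the 21200 genes that have one annotated, or 0.146%, and inside 3′ UTRs it was found in 144 of 21849 genes, or 0.659%. Tfrc-201 and Tfrc-204, both Tfrc transcripts, were the only transcripts of the 141767 searched with as many as 4 matches. The search took only the loop CAGTGN, so any hairpin with another loop was not counted. The hairpins of the ferritin chains differed from each other at 3 of 29 bases, whereas that of Fth1 differed from that of Slc40a1 at 16 of 29. The Slc11a2 stretch has 1 unpaired base in its upper stem and was found only with a looser rule, written with this element known, which matched 977 genes, or 1.76%. Slc11a1, Ireb2, Aco1, Hmox1 and Ncoa4 had no match under either rule, which says only that these letters are not in their annotated transcripts.

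**Figure D1:**
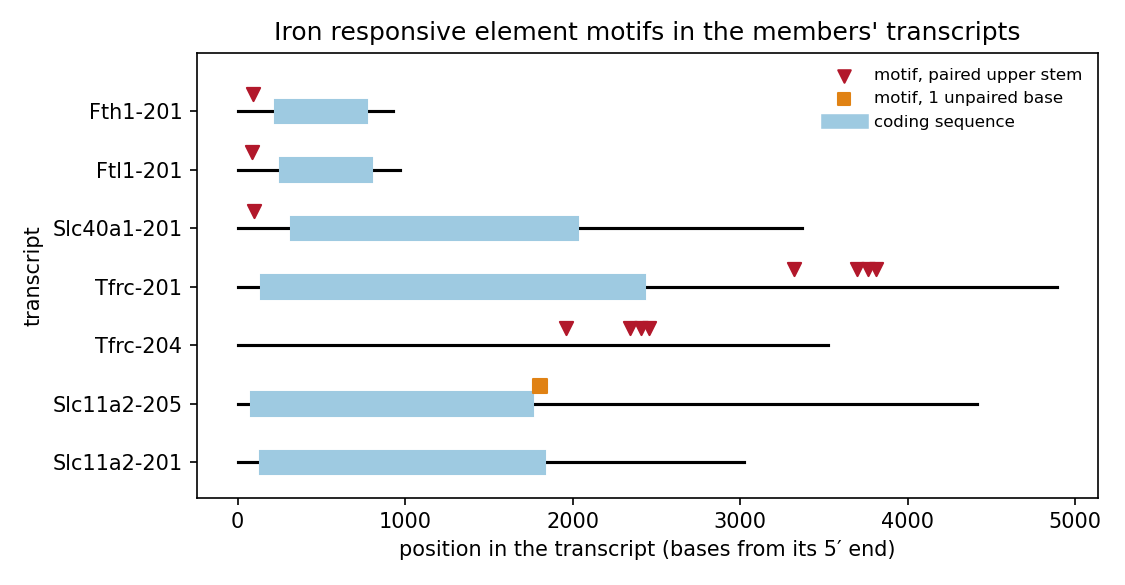
Motifs along 7 transcripts of the members, with position in bases from the 5′ end on the horizontal axis; lines are transcripts, blue boxes coding sequence, red triangles fully paired motifs and orange squares motifs with 1 unpaired base. The motif lies before the coding sequence in Fth1-201, Ftl1-201 and Slc40a1-201, after it in Tfrc-201 and Slc11a2-205, and Slc11a2-201 has none.

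Ferritin message was the most abundant of the members by far. Levels are in TPM, a gene's share of all transcripts after scaling for length, so levels of different genes can be compared. Fth1 (ENSMUSG00000024661.7, chr19:9980598-9985098, plus strand), the heavy chain with the ferroxidase site that oxidises iron on entry, stood at 27821, 31746, 21918 and 26269 TPM in replicates 1 to 4. Ftl1 (ENSMUSG00000050708.16, chr7:45457944-45459884, minus strand), the light chain that helps to form the mineral core, stood at 23736, 24731, 19161 and 22478 TPM. Fth1 had rank 1 of 22015 nuclear protein-coding genes in all 4 libraries, and Ftl1 had rank 2 in replicates 1, 3 and 4 and rank 3 in replicate 2. In the gene table both chains were lowest in replicate 3 and highest in replicate 2, whereas the second transcript table, the other quantification, had both lowest in replicate 3 and highest in replicate 4. In the gene table they together made up 5.16, 5.65, 4.11 and 4.87% of all TPM.

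The heavy chain exceeded the light chain in 4 of 4 libraries although their ranges overlapped across libraries. The ratio of Fth1 to Ftl1 TPM was 1.17, 1.28, 1.14 and 1.17 in replicates 1 to 4, with a mean of 1.19 ± 0.0623 (SD, n = 4). The second transcript table, made straight from the reads where the first was made from an alignment, gave a mean ratio of 1.19 ± 0.0664 (SD, n = 4) from lower levels of 17522 to 20131 TPM for Fth1. The leading transcripts Fth1-201 and Ftl1-201 held at least 98.97% and 99.46% of their gene's TPM in each library of the first transcript table, and at least 95.59% and 99.27% in the second. Transcripts with the hairpin held at least 99.09% and 99.91% in the first.

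Ftl1 has near copies that can exchange reads with it. Ftl1-ps1 on chromosome 13, annotated as protein-coding, shares 80.6% of the 31-base words of Ftl1-201. The gene table listed Ftl1-ps1 at 414, 471, 200 and 228 TPM, against 23.7, 34.9, 6.92 and 8.56 TPM in the second transcript table. The level of Ftl1-ps1 therefore depended on the quantification by more than 10-fold and is uncertain. The 5 copies that share at least 10% of the words took 1.01 to 1.89% of the summed TPM of Ftl1 and its copies, and the corresponding share for Fth1, with 1 such copy, was at most 0.0253%.

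Tfrc (ENSMUSG00000022797.16, chr16:32608920-32632794, plus strand), the receptor that brings in transferrin-bound iron, was high in replicate 3. Its levels were 327, 300, 651 and 272 TPM in that order of replicates, 1 to 4, so replicate 3 lay above the other 3 libraries, which spanned 272 to 327 TPM. The second transcript table gave 214, 181, 554 and 219 TPM, with the same library on top. Most of the excess was in Tfrc-204, a non-coding transcript annotated as a retained intron. It begins in the intron after exon 14 of Tfrc-201 and runs through exons 15 to 19 and nearly all of the 3′ UTR. It therefore carries all 4 hairpins listed above but lacks the first 14 exons.

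Tfrc-204 was estimated at 50.4, 70.2, 397 and 74.6 TPM in replicates 1 to 4, or 15.4, 23.4, 60.9 and 27.4% of the gene. The coding transcript Tfrc-201 was estimated at 268, 228, 254 and 196 TPM, and here replicate 3 lay within the range of the others. In the second transcript table Tfrc-204 held 0, 0.178, 50.3 and 0.244% of Tfrc TPM, so both quantifications put most of the excess of replicate 3 in the same transcript. Tfrc-201 there was estimated at 207, 176, 275 and 212 TPM, with replicate 3 the highest. The quantifications did not give the same base level, since the first assigned Tfrc-204 at least 15.4% in every library and the second almost nothing outside replicate 3. Reads of the shared exons can be assigned to either transcript, and whether the reads of replicate 3 lie in the intron or in the 3′ exons cannot be told apart from these tables.

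The size of this shift was uncommon without being singular. For each gene with at least 10 TPM in every library and at least 2 transcripts, the largest gain in any transcript's share was taken for replicate 3 against the median of the other libraries. For Tfrc it was 37.5 percentage points, and 79 of 5367 genes had a gain at least as large, beside a median of 5.18. In the second transcript table it was 50.1 percentage points, and 19 of 4680 genes reached that. Retained-intron transcripts as a class held 3.32% of TPM in replicate 3 and 2.33 to 3.06% in the others.

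**Figure D2:**
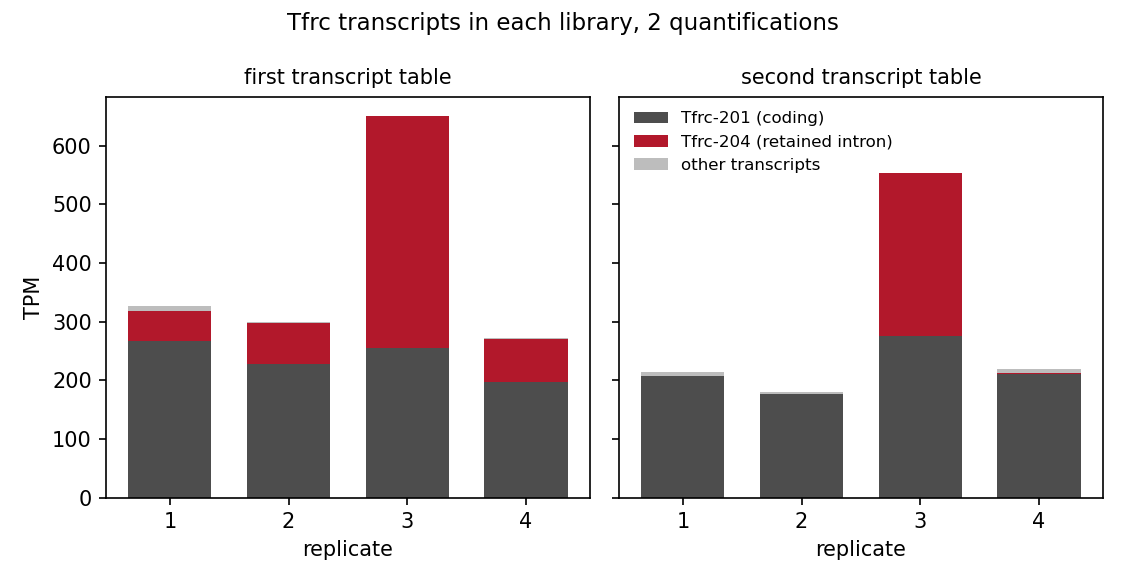
TPM of Tfrc transcripts in replicates 1 to 4, stacked from 0, in the first (left) and second (right) transcript table; dark grey is coding Tfrc-201, red is Tfrc-204 and light grey the other transcripts. The red part is 397 TPM in replicate 3 and 50.4 to 74.6 TPM elsewhere on the left, and near 0 outside replicate 3 on the right.

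Markers of neutrophils, which are other cells of the marrow, were also highest in replicate 3. The summed TPM of the 8 neutrophil markers was 199, 109, 729 and 69.4 in replicates 1 to 4, led by S100a9, an abundant neutrophil protein, at 101, 61.6, 457 and 41.9 TPM. Elane and Mpo, which define neutrophil precursors, did not exceed 1.13 TPM in any library. All 8 neutrophil markers were highest in replicate 3. Of 5 dendritic cell markers 4 were highest there too, at low levels. Their summed TPM over all 5 was 1.77, 2.04, 3.83 and 1.42 in replicates 1 to 4. The part of either cell type in the Tfrc level was not tested. In bulk RNA, fewer cells of a type and less RNA per cell cannot be told apart.

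Slc11a2 (ENSMUSG00000023030.16, chr15:100387898-100425072, minus strand), also called DMT1, moves ferrous iron out of endosomes and had similar levels in all 4 libraries. Its values were 37.5, 43.7, 40.1 and 46.5 TPM in replicates 1 to 4. Its transcripts end in different ways, and only Slc11a2-205, which ends in exon 16, holds the hairpin, whereas Slc11a2-201 ends in exon 17 without it. Slc11a2-205 was estimated at 11.7, 14.2, 15.1 and 16.4 TPM and Slc11a2-201 at 22.1, 24.8, 20.6 and 23.0 TPM. Slc11a2-201 was the higher in 4 of 4 libraries. Of these transcripts together, the form with the hairpin made up 34.5, 36.3, 42.3 and 41.5%, and 34.3, 35.1, 43.4 and 40.9% in the second transcript table. In the other members with a hairpin, transcripts that carry it held at least 96.7% of the gene's TPM in every library of the first transcript table.

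Slc11a1 (ENSMUSG00000026177.11, chr1:74375195-74386062, plus strand), also called NRAMP1, had several times the level of Slc11a2. Where its product works, it pumps metal ions out of the phagosome and limits the growth of engulfed microbes. Whether it works in cells of this mouse strain cannot be read from RNA levels and was not tested. Slc11a1 stood at 270, 324, 388 and 401 TPM, from 7.20 to 9.69 times Slc11a2 in the same library. Part of this level is a matter of length scaling. Slc11a1-206, a non-coding transcript of 378 bases, held 39.0, 40.3, 41.7 and 45.9% of Slc11a1 TPM but only 4.39, 4.59, 4.41 and 5.22% of its counts. The coding Slc11a1-201, of 2315 bases, was estimated at 139, 160, 195 and 176 TPM and held 86.7 to 89.4% of the counts. On that transcript alone Slc11a1 still exceeded all Slc11a2 transcripts summed in 4 of 4 libraries.

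Slc40a1 (ENSMUSG00000025993.10, chr1:45908068-45926523, minus strand) encodes ferroportin, the only known cellular iron exporter in vertebrates, and was lowest in replicate 1. Its levels were 193, 407, 356 and 313 TPM, so replicate 1 lay below the other libraries, which spanned 313 to 407 TPM. The second transcript table gave 130, 260, 306 and 258 TPM, with replicate 1 again lowest and with replicate 3 in place of replicate 2 as the highest. Slc40a1-201, the coding transcript with the hairpin, held 96.7 to 99.2% of the gene. Over all transcripts, Slc40a1 was at 0.590 and 0.546 times Tfrc in replicates 1 and 3 and at 1.36 and 1.15 times Tfrc in replicates 2 and 4. On the coding transcripts Slc40a1-201 and Tfrc-201 alone, a choice made after the data were seen, the direction in replicate 3 turned: the ratios were 0.699, 1.73, 1.39 and 1.54 in replicates 1 to 4, and 0.606, 1.41, 1.10 and 1.18 in the second transcript table.

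Hmox1 (ENSMUSG00000005413.8, chr8:75093621-75100589, plus strand), the enzyme that frees iron from haem and is a known target of the stress factor NRF2, was highest in replicate 1. It stood at 582, 270, 466 and 302 TPM, with replicates 1 and 3 above replicates 2 and 4. The second transcript table kept this split with 395, 170, 391 and 246 TPM. Hmox1-201, its coding transcript, held at least 99.96% of the gene in every library. Nfe2l2, which encodes NRF2, stood at 286, 597, 365 and 485 TPM, highest in replicate 2 and lowest in replicate 1, and was called variable by the rule given below.

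Ncoa4 (ENSMUSG00000056234.15, chr14:32159865-32179855, plus strand), the receptor that carries ferritin to the lysosome, varied most of the 10 members. Its levels were 92.5, 351, 296 and 407 TPM in the gene table, and 76.0, 242, 257 and 348 TPM in the second transcript table. Replicate 1 lay far below the other 3 libraries in both. Its transcripts begin at different first exons: in Ncoa4-202, Ncoa4-207 and Ncoa4-208 the first exon ends at chr14:32160010 (mm10), and in the leading transcript Ncoa4-201 it begins downstream, at chr14:32165791.

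The low level of replicate 1 was estimated mainly in the transcripts with downstream first exons. The other 10 transcripts, of which the intron-retaining Ncoa4-212 starts inside the upstream exon but did not exceed 0.2 TPM, summed to 62.8, 304, 249 and 349 TPM, a 5.55-fold range. The 3 transcripts with the spliced upstream exon summed to 29.6, 46.8, 47.4 and 58.1 TPM, a 1.96-fold range. In the second transcript table these ranges were 5.26-fold and 2.23-fold. Ncoa4-203, a downstream transcript of 462 bases, held 17.6 to 30.2% of Ncoa4 TPM but at most 2.655% of its counts. The upstream share of TPM was therefore 32.1% in replicate 1 and 13.3, 16.0 and 14.3% in the others, and 22.5% against 10.5, 8.16 and 11.0% in the second transcript table. By counts of the first it was 40.06, 15.05, 22.08 and 19.35% in replicates 1 to 4. Ncoa4-202 also has a longer last exon than Ncoa4-201, 2033 against 1425 bases. In replicate 1 Ncoa4-202 was estimated at 24.3 TPM, and at 2.90 TPM in the second transcript table. Whether the difference lies in the first or the last exons cannot be told apart here. Gm6768, a processed pseudogene on chromosome 12, shares 53.9% of the words of Ncoa4-201 and took 0.747 to 1.86% of their summed TPM.

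**Figure D3:**
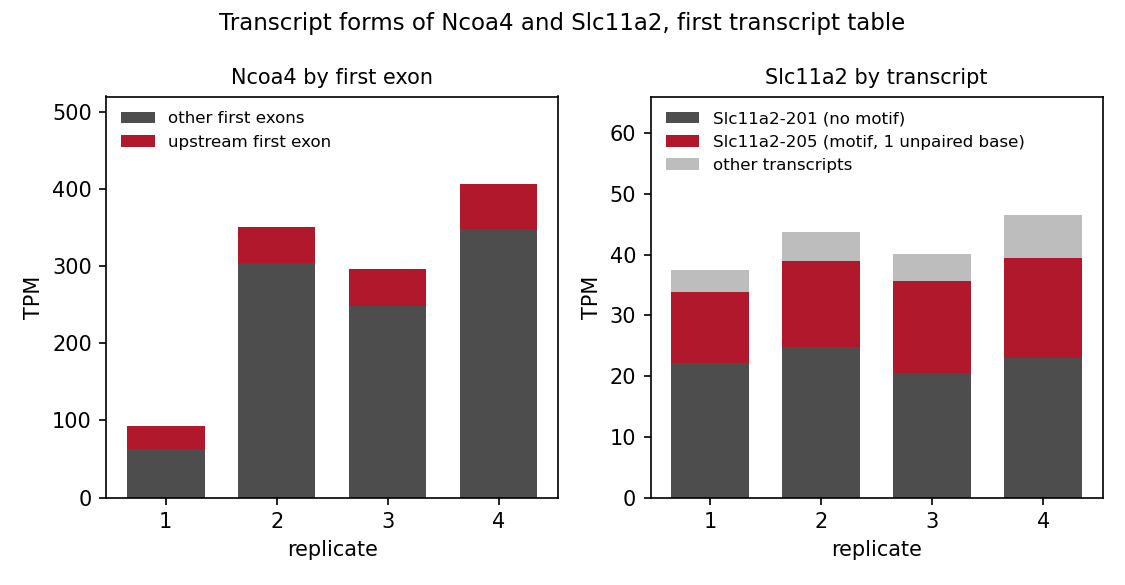
TPM in replicates 1 to 4, stacked from 0, of Ncoa4 transcripts by first exon (left; red has the upstream first exon, dark grey the others) and of Slc11a2 transcripts (right; red is Slc11a2-205, dark grey Slc11a2-201, light grey the rest). For Ncoa4 the dark part is 62.8 TPM in replicate 1 and 249 to 349 TPM elsewhere, whereas the red part spans 29.6 to 58.1 TPM.

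Replicate 1 also stood apart in other measures. The summed TPM of 8 proliferation markers was 934, 251, 490 and 315 in replicates 1 to 4, and 7 of the 8 varied by the call defined below. Pcna, a clamp of the replication fork, made up 653 of the 934 TPM in replicate 1. Of the 8 markers 6 were highest in replicate 1, whereas Mki67 was highest in replicate 2 and Ccnb1 was at 5.07 TPM in replicate 1 and 5.08 TPM in replicate 3. Of 8 macrophage markers 4 were lowest in replicate 1, as Ncoa4 and Slc40a1 were. Csf1r, a growth factor receptor, was among them at 526, 1155, 625 and 852 TPM. So was Mertk, a receptor for dying cells, at 41.1, 73.0, 97.7 and 60.0 TPM. The other 4 were lowest in replicate 3, and 2 of those were highest in replicate 1. They were Itgam at 151.5, 78.1, 72.5 and 73.7 TPM and Fcgr1 at 187, 174, 168 and 177 TPM. The share of gene counts in a ribosomal RNA gene was 12.3% in replicate 1 and 3.26 to 6.98% in the others. The part of any of these in the levels of Ncoa4, Slc40a1 and Hmox1 was not tested. The genes most like Ncoa4 over the 4 libraries, among 11195 genes with a mean of at least 1 TPM, were Socs6, Gm26522 and P2ry14. Likeness was the root mean square difference of deviations of log2(CPM + 1) from the gene's mean, which was 0.023, 0.034 and 0.061 for them. Socs6 stood at 15.3, 41.2, 36.5 and 41.9 TPM.

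The sensors were the lowest of the members. Aco1 (ENSMUSG00000028405.9, chr4:40143081-40198338, plus strand) encodes a protein that is an aconitase when it holds an iron-sulphur cluster and an iron regulatory protein when it does not, and it stood at 29.3, 25.4, 30.3 and 28.5 TPM. Ireb2 (ENSMUSG00000032293.8, chr9:54863789-54912530, plus strand), whose protein is destroyed when iron is ample, stood at 19.2, 16.1, 14.5 and 13.7 TPM. Aco1 exceeded Ireb2 in 4 of 4 libraries and their ranges did not overlap. The ratio was 1.53 and 1.58 in replicates 1 and 2 and 2.09 and 2.08 in replicates 3 and 4. The leading transcripts Aco1-201 and Ireb2-201 held at least 98.94% and 96.86% of their genes in the first transcript table, and at least 96.85% and 93.27% in the second.

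By mean level the members ran from Fth1 at 26938 ± 4064 TPM and Ftl1 at 22526 ± 2426 TPM to Hmox1 at 405 ± 146, Tfrc at 387 ± 177, Slc11a1 at 346 ± 60.7, Slc40a1 at 317 ± 91.3 and Ncoa4 at 287 ± 137 TPM (SD, n = 4 each). Slc11a2 at 41.9 ± 3.99, Aco1 at 28.4 ± 2.12 and Ireb2 at 15.9 ± 2.43 TPM closed the order (SD, n = 4 each). Of the 9 neighbouring pairs, 5 had ranges that overlapped: Fth1 with Ftl1, and each step from Hmox1 to Ncoa4. The 5 genes from Hmox1 to Ncoa4 therefore have no order that these libraries separate. The ferritin chains, the sensors and Slc11a2 were separated from their next neighbours outside their own group. Depth does not limit this order, since the lowest expected count of any member was 1726, for Ireb2 in replicate 2.

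**Figure D4:**
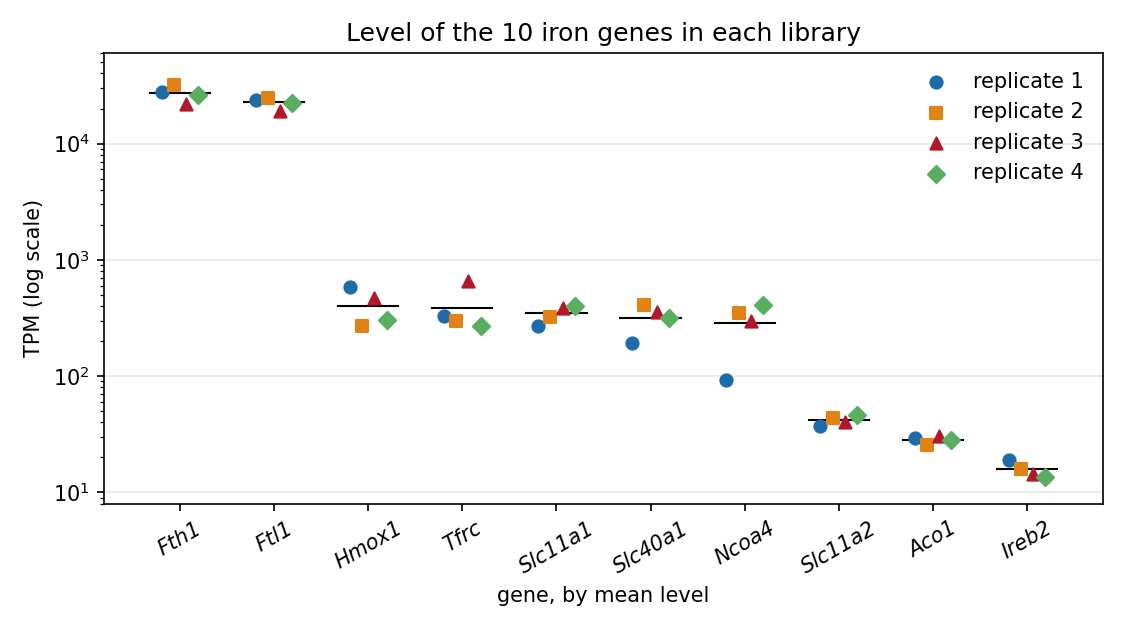
TPM on a log axis for the 10 members in order of mean level; each symbol is a library and each bar the mean of 4. The ferritin chains lie above 19160 TPM, 5 genes lie between 92.5 and 651 TPM, and Slc11a2, Aco1 and Ireb2 lie at or below 46.5 TPM.

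Variation between libraries was set against counting noise and then against all genes. Counts were scaled by TMM, and a gene was called variable when a chi-square test over the 4 libraries passed a Benjamini-Hochberg adjusted 0.05 and the highest scaled count was at least 2-fold the lowest. All 10 members had a mean count of at least 10 and were tested. Ncoa4, Slc40a1, Tfrc and Hmox1 were called, 4 of 10, beside 33.0% of the 12626 genes tested, a share near that of all genes. Their ratios of highest to lowest scaled count were 4.00, 2.16, 2.11 and 2.11. The other 6 ranged from 1.24 for Ftl1 to 1.495 for Slc11a1, and the median over the 10 members was 1.45, beside 1.68 over all genes tested.

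The calls rested on particular libraries. Without replicate 1, Tfrc alone was called, and the ratios of Ncoa4, Slc40a1 and Hmox1 were 1.19, 1.22 and 1.81. Without replicate 3 the ratio of Tfrc was 1.11 and it was not called, and without replicate 2 that of Hmox1 was 1.78 and it was not called. On counts of each gene's leading coding transcript alone, a choice made after the data were seen, Tfrc had a ratio of 1.28 and was not called, and 3 members were called, beside 36.0% of 11008 genes.

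**Figure D5:**
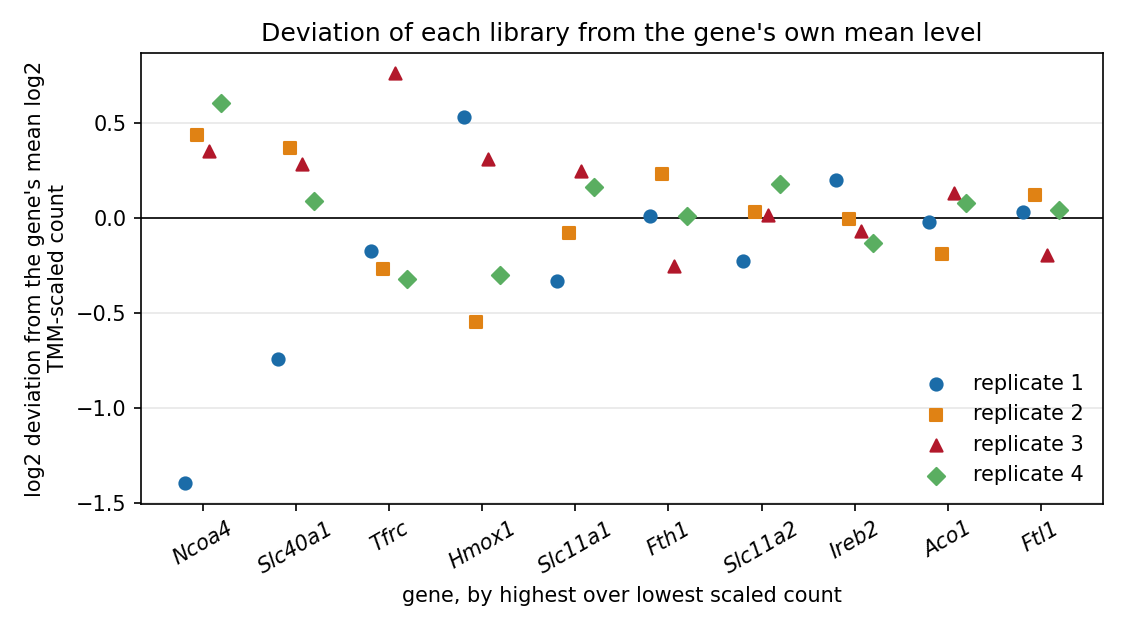
Deviation of each library from the gene's mean log2 TMM-scaled count, for the 10 members in order of highest over lowest scaled count; each symbol is a library. Replicate 1 lies lowest for Ncoa4 and Slc40a1 and highest for Hmox1, and replicate 3 lies highest for Tfrc, whereas the 6 genes on the right deviate least.

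The libraries were read from 4 files each in replicates 3 and 4 and 6 files each in replicates 1 and 2, a technical difference that the deposited text lists record. In edgeR's quasi-likelihood test of replicates 3 and 4 against replicates 1 and 2, 0 of 10 members were called at a Benjamini-Hochberg adjusted 0.05, beside 0% of the 12701 genes tested. At an unadjusted p under 0.05 there were 0 members among 290 genes, and DESeq2 called 38 genes of 13674, with no member among them. This does not show that the pairs of libraries had equal levels.

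Other genes of iron handling were followed in 6 lists of 70 genes, of which 53 had at least 1 TPM in every library. Of the 55 that could be tested, 19 were called variable, or 34.5%, beside 33.0% of all 12626 genes tested. Each list below is small and its count of calls is given as a description beside that 33.0%. In the transferrin cycle and uptake list 6 of 9 were called. Its highest genes were Trf, which encodes transferrin, at 642, 795, 1181 and 916 TPM, and Mcoln1, a lysosomal cation channel that passes iron, at 35.8, 55.6, 46.8 and 49.7 TPM, and neither was called. The called genes were Hfe, Steap4, Slc39a14, Slc39a8, Lcn2 and Ltf. Slc39a14, a zinc and iron importer, stood at 16.9, 4.26, 3.66 and 5.72 TPM and was highest in replicate 1. Lcn2, which binds bacterial siderophores, stood at 9.64, 7.23, 23.8 and 4.28 TPM, and Ltf, which encodes lactoferrin, at 3.46, 2.07, 19.4 and 1.15 TPM. Both are granule proteins of neutrophils, were highest in replicate 3 as the neutrophil markers were, and Ltf is in both lists.

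Most genes listed for iron export and hepcidin, a list without Slc40a1, were nearly silent. The export and hepcidin list holds 8 genes, of which 7 never reached 1 TPM, and 5 of those were at 0 TPM in all 4 libraries. Cp, which encodes the ferroxidase ceruloplasmin that works with ferroportin, was the exception at 3.84, 12.2, 9.66 and 9.36 TPM, and was called variable. Hamp, which encodes hepcidin, the hormone that removes ferroportin from the surface, was at 0 TPM in replicates 1, 2 and 4 and at 0.27 TPM in replicate 3.

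Among chaperones and regulators of the iron regulatory proteins, 2 of 10 were called. Pcbp2, an iron chaperone, averaged 404 ± 52.3 TPM and Ndfip1, an adaptor for ubiquitin ligases, 190 ± 27.1 TPM (SD, n = 4 each), and neither was called. Bola2, a partner of cytosolic glutaredoxin, was called at 76.1, 32.6, 30.5 and 26.6 TPM, highest in replicate 1. Pcbp3 was called too but did not exceed 0.62 TPM.

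Among haem-handling genes 3 of 11 were called. Lrp1, a receptor for haem bound to haemopexin, stood at 463, 215, 334 and 288 TPM, in the same order of libraries as Hmox1. Blvrb, a biliverdin reductase, averaged 186 ± 15.4 TPM (SD, n = 4) and was not called. Cd163, the haemoglobin scavenger receptor, and Hp, haptoglobin, were called but did not exceed 3.4 TPM.

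In the mitochondrial iron and iron-sulphur list 4 of 15 were called, and all 15 had at least 1 TPM in every library. Iscu, the scaffold on which clusters are built, averaged 82.7 ± 9.85 TPM (SD, n = 4) and was not called. The called genes included Slc25a37, the mitochondrial iron importer, at 18.8, 42.5, 21.5 and 46.1 TPM, Glrx5, and the ferredoxin gene Fdx2, listed under the name Fdx1l. Glrx5 and Fdx2 were highest in replicate 1, at 19.8 and 43.7 TPM.

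Of 9 transcription factors of iron genes 3 were called. Nfe2l2 was given with Hmox1, and Maff, a partner of its product, averaged 114 ± 18.2 TPM (SD, n = 4) and was not called. Spic, which drives the programme of iron-recycling macrophages and Slc40a1 in mice, stood at 6.21, 13.9, 28.9 and 6.92 TPM and was highest in replicate 3. Epas1, which encodes HIF-2α, stood at 6.34, 1.48, 4.02 and 2.09 TPM.

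The cells carried the markers of macrophages, and 8 of 9 erythroid markers stayed below 1 TPM. Total gene counts per library were 26917324 to 39438414. All 8 macrophage markers had at least 1 TPM in every library, and 3 of them, Lyz2, Csf1r and Mertk, were called variable. Lyz2 stood at 14290 to 28530 TPM and Adgre1, which encodes F4/80, at 491 to 637 TPM. Erythroid markers matter here since red cell precursors also make much Tfrc. Of the 9, 8 were below 1 TPM in every library and 4 of those were at 0 in every library. The other, Epor, stood at 3.66, 4.55, 5.22 and 3.58 TPM in replicates 1 to 4, highest in replicate 3, and was not called variable. All 6 B and T cell markers were below 1 TPM in every library, as were 4 of 5 dendritic cell markers.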

How the data were processed

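Each of the 4 libraries had a gene table and 2 transcript tables deposited by the authors, on mm10 and GENCODE M21, as the text lists deposited with them say. The gene and first transcript tables have the columns RSEM writes and the second those kallisto writes (programs and versions: not given in the sources used here). Deposited by the authors are expected counts, estimates that need not be whole, and TPM, scaled by the authors to the total of each table. The deposited share of a gene's TPM per transcript, a percent, was recomputed from TPM, and the deposited TPM interval, a signal with no stated level, was not used for any statement. Rows naming no gene (26345 of 81881) held 0.103 to 0.118% of counts and were left out.

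Expected counts were rounded. edgeR 4.0.16 with limma 3.58.1 in R 4.3.3 gave TMM library sizes and the quasi-likelihood test, DESeq2 1.42.0 an alternative. The chi-square test had 3 degrees of freedom and took genes whose mean count reached 10; it covers counting error only, since fragments are not independent molecules. Both tests were tested on simulated data. Python 3.11.15, NumPy 2.4.6, SciPy 1.17.1, pandas 2.3.3, statsmodels 0.14.6 and matplotlib 3.10.9 did the rest. Copies were found by words of 31 bases shared with a leading transcript; the 10% minimum was set after smaller shares were seen. Sequences came from the GENCODE M21 transcripts.

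All members are named. Of each iron list, the genes named are the pair of highest mean TPM and every gene called variable; Socs6, Gm26522 and P2ry14 are the 3 genes nearest to the most variable member. Some genes that this rule names in the mitochondrial list are not reported here. Symbols that GENCODE M21 lists under another name were matched through RefSeq synonyms. The members and lists were chosen with earlier results of these data known. P-values of edgeR and DESeq2 measure only the spread between these samples. Those of the chi-square test set the libraries against counting noise alone. Alternatives were another scaling, no filter, a 1.5-fold threshold, the second table, pairs of libraries alone and leaving out each replicate; the looser motif rule and the leading-transcript counts were added after the data were seen.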

Additional observations from a re-analysis of the deposited data

Results flagged for a closer look

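Of 31 values checked over the 4 libraries, 4 had 1 library far from the others, by Dixon's test of the gap to the nearest library over the range; chance gives about 1 in 20. Tfrc stood at 651 TPM in replicate 3 with a gap of 0.855 of the range. Ncoa4 transcripts with the upstream first exon held 32.1% of that gene in replicate 1, with a gap of 0.858. The other two were small in size: Ftl1-201 held 99.5% of Ftl1 in replicate 2 and in every other library, and Aco1-201 held 98.9% of Aco1 in replicate 3 and 100% in the others.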

How the results depend on the processing

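No paired analysis was possible because all 4 libraries belong to 1 group. The count of members called variable was 4 under DESeq2 size factors, total counts, no filter, a 1.5-fold threshold and the second table, 3 within the libraries with more read files, 1 within those with fewer, and 1 to 4 without each replicate in turn. Over all genes, 4167 calls became 7347 at 1.5-fold, 2657 within the libraries with more read files, 1249 within those with fewer, and 2048 to 3683 without each replicate. The 0 genes called between libraries with fewer and more read files became 38 with DESeq2, 18 with no filter, 10 in the second table and 0 to 98 without each replicate, with no member called in any of them. The Tfrc-204 share in replicate 3 was 60.9%, and 50.3% in the second table. Neighbouring pairs with overlapping ranges numbered 5, and 4 to 5 under every alternative. Of 70 recomputed mean levels 58 moved by less than 1 SD; the other 12 were in the second table or in TPM rescaled over protein-coding genes. Of 95 recomputed mean transcript shares 85 did so, and the other 10 were in the second table. Of 52 recomputed calls of the 4 variable members 41 were kept and 11 were lost, and none of 78 recomputations for the other 6 members gave a call. The cause of these changes was not tested. The 4 libraries of 1 group limit every statement to these samples.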
